A study of Rattus norvegicus with 3 samples.

Results

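Genes of the mitotic spindle, the kinetochore and cytokinesis were examined in rat osteosarcoma cells, malignant fibrous histiocytoma (MFH) cells and bone marrow mesenchymal stem cells (MSCs). A list of 50 such genes was set by their known roles, though with earlier results of these data known. Every probe whose RefSeq accession carries one of these gene names was read from the 3 arrays. A total of 39 of the 50 genes had a named probe, out of 13301 genes with a named probe on the whole array. Named probes were not found for Cdca3, Melk, Bub1b, Cenpe, Ndc80, Spc24, Kif4a, Nusap1, Anln, Top2a and Mki67, whose levels were therefore not analysed here. All 39 measured genes were well above background on at least 1 array, and 38 were so on all 3.

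The study compared 2 cell lines, COS1NR and MFH1NR, with MSCs of syngeneic F344 rats to ask which genes and pathways differ between these sarcomas and their presumed progenitor cells. COS1NR is an osteosarcoma line and MFH1NR an MFH line, each established from a tumour that 4-HAQO, a chemical carcinogen, had induced, and both carry a p53 mutation per the study's methods. The MSCs came from femur bone marrow, were selected by growth on plastic and were not sorted, and they were kept in medium with more serum than the lines. Each of the 3 was hybridised to 1 array of Cy3-labeled cRNA without replicates, so that no difference below was tested against the spread between cultures.

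Mitosis is driven by cyclin-dependent kinase 1 (Cdk1) and its cyclins, which are made before cells divide and destroyed as they leave mitosis. Microtubules of the spindle attach to each chromosome at its kinetochore, a checkpoint holds the cell until all are attached, and cytokinesis then separates the daughter cells. Many of these genes are transcribed mainly late in the cell cycle, through promoter elements known as CCAAT boxes and the cell cycle genes homology region (CHR), and are therefore widely read as marks of dividing cells. In RNA from a whole culture, fewer dividing cells and less of an RNA per cell cannot be told apart.

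Promoters of 6 of these genes are shown because they span the range of the ratios reported below. Cdk1, Ccnb2 (cyclin B2) and Cdc20 are core mitotic regulators, Psrc1 and Kif18a stood farthest apart between the lines, and Bub3 had the lowest ratio over MSCs. Each sequence runs 5′ to 3′ on the gene's strand from 150 bases before the annotated gene start to base 20 after it, taken from RefSeq on the GRCr8 assembly. Capitals mark the CHR letters TTTGAA and the CCAAT box, on either strand.
Cdk1 (chr20:19265143-19265312, plus strand): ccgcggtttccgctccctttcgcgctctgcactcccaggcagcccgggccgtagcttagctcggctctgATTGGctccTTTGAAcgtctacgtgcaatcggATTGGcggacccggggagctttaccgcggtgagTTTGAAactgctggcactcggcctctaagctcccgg
Ccnb2 (chr8:79981639-79981808, minus strand): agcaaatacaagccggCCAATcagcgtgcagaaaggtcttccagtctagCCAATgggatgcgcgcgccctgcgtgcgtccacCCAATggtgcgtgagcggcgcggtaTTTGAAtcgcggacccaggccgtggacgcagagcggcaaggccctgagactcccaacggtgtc
Cdc20 (chr5:137255780-137255949, minus strand): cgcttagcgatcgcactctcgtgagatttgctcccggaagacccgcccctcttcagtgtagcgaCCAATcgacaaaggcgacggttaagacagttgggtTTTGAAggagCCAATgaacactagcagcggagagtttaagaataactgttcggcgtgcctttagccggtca
Psrc1 (chr2:198710399-198710568, plus strand): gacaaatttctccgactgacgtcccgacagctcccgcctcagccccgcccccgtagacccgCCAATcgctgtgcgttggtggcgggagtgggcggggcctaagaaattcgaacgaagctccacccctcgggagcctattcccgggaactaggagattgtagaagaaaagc
Kif18a (chr3:116218857-116219026, plus strand): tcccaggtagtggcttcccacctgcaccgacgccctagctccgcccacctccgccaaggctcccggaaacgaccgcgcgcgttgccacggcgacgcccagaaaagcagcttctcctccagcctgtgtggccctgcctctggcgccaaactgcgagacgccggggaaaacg
Bub3 (chr1:195760382-195760551, plus strand): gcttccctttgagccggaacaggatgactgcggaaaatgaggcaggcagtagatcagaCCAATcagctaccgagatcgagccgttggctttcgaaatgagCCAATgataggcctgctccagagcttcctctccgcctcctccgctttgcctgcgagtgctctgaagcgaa

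In Ccnb2, 3 CCAAT boxes were spaced by 33 bases each and followed by a CHR. The neighbouring CCAAT boxes closest to the start lay 32 bases apart in Cdk1 and 45 bases apart in Cdc20, with a CHR between them in each. Psrc1 held 1 CCAAT box and Kif18a none of these letters. Bub3, with the lowest ratio, held CCAAT boxes too.

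Intensities are given relative to the 75th percentile of their own array, so that 1 stands for a probe as bright as that percentile, and ratios are ratios of these relative intensities. Values of different probes are not comparable, since each probe binds with its own strength. Shares of all genes are given over the 10009 genes well above background on at least 1 array, called the genes used. The 75th percentile of the processed intensity was 589 in the MSC culture, 774 in COS1NR and 994 in MFH1NR, and between 56.6% and 59.7% of spots were well above background. The arrays of COS1NR and MFH1NR lay on 1 slide and were scanned together, while the MSC array lay on another slide, so the slide cannot be told apart from the cell type wherever a line is compared with MSCs. The software's own error estimate of a spot came to 0.20 in the log2 ratio of a member at the median, which covers neither cultures nor labeling.

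Markers of macrophages, phagocytes that also adhere to plastic, moved with the comparison. All 17 macrophage markers were well above background in MSCs, against 9 in COS1NR and 8 in MFH1NR, and all 17 were at least 2-fold lower in both lines, beside 14.6% of all genes used. Their summed relative intensity was 202 in the MSC culture, 13.1 in COS1NR and 5.39 in MFH1NR. Lyz2, C1qa, Mrc1, Adgre1, Itgam, Spi1, Cd163 and Ptprc were not well above background in either line. The part of these cells in the mitotic ratios was not tested. Of the surface markers that define MSCs, Thy1, Eng, Nt5e and Cd44 were all well above background in MSCs. In COS1NR 2 of these 4 markers were well above background, Nt5e and Cd44, and in MFH1NR 3, these and Thy1, while 3 in COS1NR and 2 in MFH1NR were at least 2-fold lower than in MSCs. Cd44, a hyaluronan receptor, had a relative intensity of 31.3 in the MSC culture, 21.1 in COS1NR and 16.5 in MFH1NR. Of 6 measured osteoblast markers 5 were so in the MSC culture, 5 in COS1NR and 6 in MFH1NR, while 4 in COS1NR and 2 in MFH1NR were at least 2-fold lower than in MSCs, and none in COS1NR and 2 in MFH1NR at least 2-fold higher. Of all genes used, 22.3% in COS1NR and 23.2% in MFH1NR were at least 2-fold lower.

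All 39 measured mitotic genes were higher in both sarcoma lines than in MSCs, as were 39.9% of all genes used. At least 2-fold higher in both lines were 37 of them, a share of 94.9%, while 12.2% of the 10009 genes used reached that in both lines. In COS1NR 37 genes and in MFH1NR 39 genes passed 2-fold, beside 21.7% and 20.8% of all genes used. No mitotic gene was lower, while 22.3% of all genes used were at least 2-fold lower in COS1NR and 23.2% in MFH1NR, so that 44.0% of genes stood at least 2-fold apart from MSCs in each line. The median ratio of the mitotic genes was 2.34 on the log2 scale in COS1NR (5.07-fold) and 2.48 in MFH1NR (5.58-fold), against 0.11 and 0.01 for all genes used. Both ratios are taken over the same MSC array, so that any error of that array enters both.

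The ratios of the mitotic genes lay closer together than those of all genes used. Their SD over genes was 0.77 in COS1NR and 0.67 in MFH1NR on the log2 scale, against 2.03 and 2.23 for all genes used. Genes dim on an array widen the SD of all genes. From the 25th to the 75th percentile the ratios spanned 0.75 and 0.82, against 1.70 and 1.72 for all genes. Replication genes, described below, had SDs of 0.83 and 0.78, so the narrow spread was not particular to the mitotic genes. At least 4-fold higher were 30 genes in COS1NR and 33 in MFH1NR, with 27 in both, beside 7.36%, 8.19% and 3.56% of all genes used. At least 8-fold higher in both were 4 by the ratios as read, beside 0.999% of all genes used. With Hmmr, dim in MSCs, set at its bound they were 3, namely Kif22, Psrc1 and Cep55. Each of these 3 fell under 8-fold, a log2 ratio of 3, in a line under another setting. The lowest log2 ratios were 2.82 for Kif22 in COS1NR, 2.79 for Psrc1 in MFH1NR and 1.71 for Cep55 in COS1NR. The median ratio differed from that of all genes by 2.23 in COS1NR and 2.47 in MFH1NR with the 75th percentile, and by 2.21 and 2.47 with quantile normalization. For 8 mitotic genes several probes were printed, and all of these probes were higher in both lines.

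**Figure D1:**
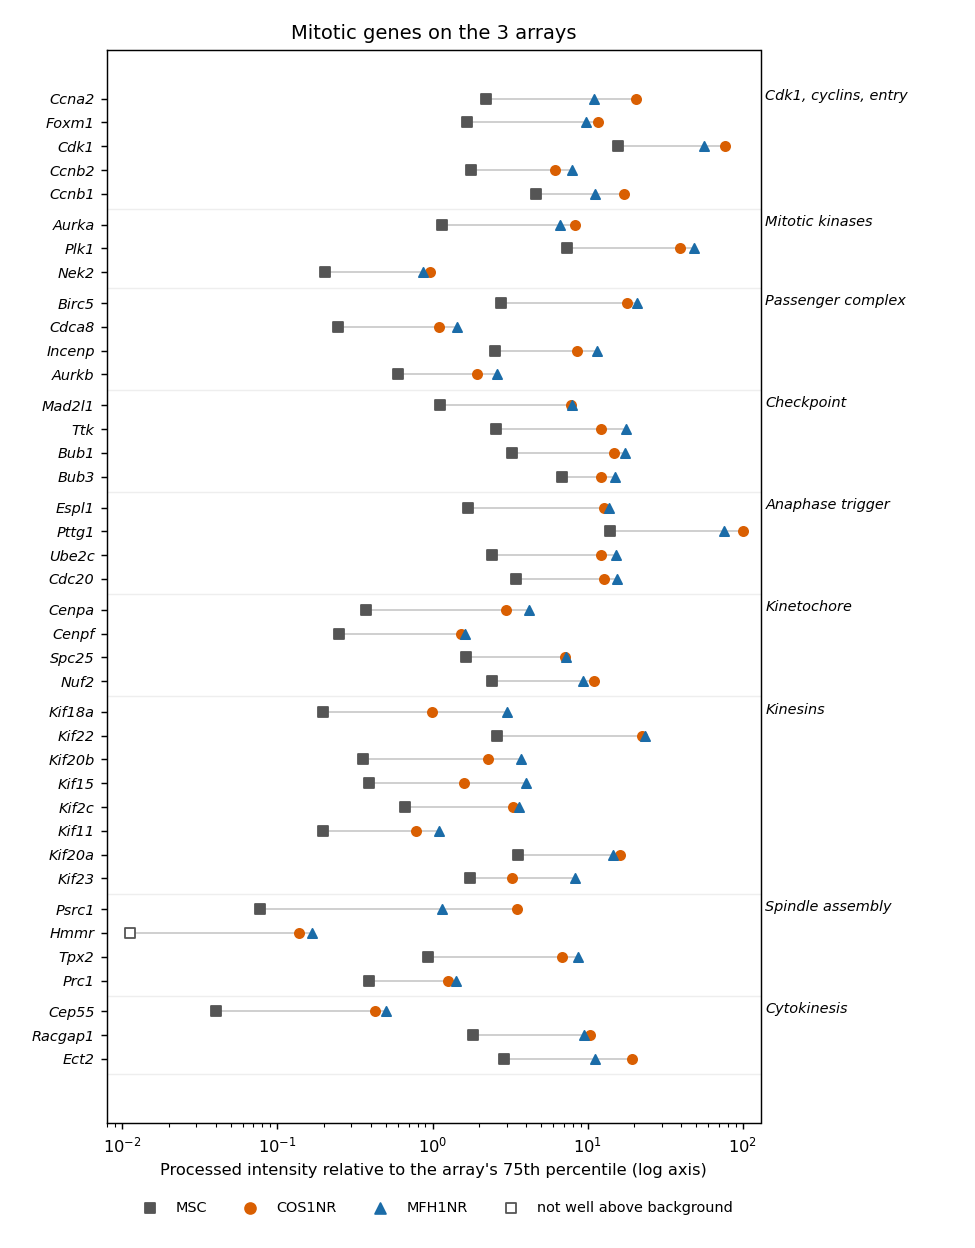
Relative processed intensity (log axis, 1 = the array's 75th percentile) of the 39 measured mitotic genes on the arrays of MSCs (squares), COS1NR (circles) and MFH1NR (triangles), 1 array each and without error bars, grouped by role. The MSC point lies lowest in every gene, the open square of Hmmr was not well above background, and positions of different genes are not comparable.

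**Figure D2:**
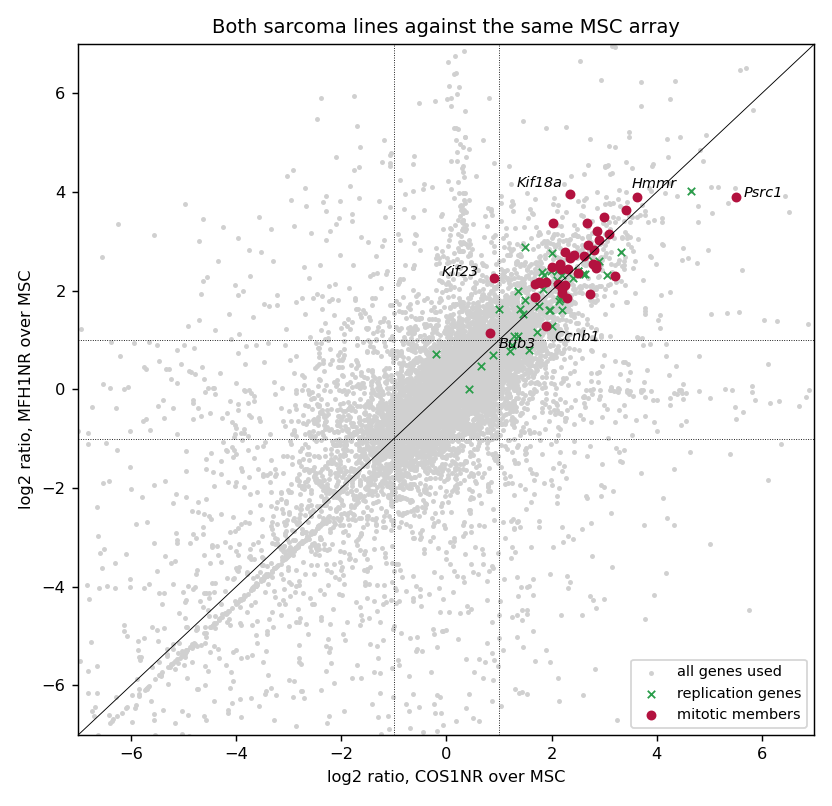
Log2 ratio over MSCs in COS1NR (horizontal) and in MFH1NR (vertical) for all 10009 genes used (grey), 43 replication genes (crosses) and 39 mitotic genes (filled circles), with dotted lines at 2-fold and the line of equal ratios. Both axes share the MSC array, and 291 genes lie outside the axes, which end at 7. The mitotic genes lie to the upper right, with Bub3 and Kif23 left of the 2-fold line of COS1NR.

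Among the genes of mitotic entry, 5 of 6 were measured and all 5 were at least 2-fold higher in both lines. Ccna2 encodes cyclin A2, the partner of Cdk1 and Cdk2 from S phase to early mitosis. Its relative intensity was 2.22 in the MSC culture, 20.5 in COS1NR and 10.9 in MFH1NR, a ratio of 9.24 and 4.91. Another Ccna2 probe gave ratios of 11.4 and 6.05, in the same order of the lines. Foxm1, a transcription factor of late cell cycle genes, had relative intensities of 1.68, 11.6 and 9.81 in MSCs, COS1NR and MFH1NR. The lines were thus 6.93-fold and 5.84-fold above MSCs for Foxm1.

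Cdk1 itself, whose promoter is printed above, had a relative intensity of 15.6 in the MSC culture, 76.4 in COS1NR and 56.3 in MFH1NR. Both lines were well above MSCs for this kinase, by 4.88-fold and 3.60-fold. Ccnb2 followed with 1.76, 6.14 and 7.88, and here MFH1NR was the higher line. Ccnb1, which encodes cyclin B1, had the lowest mean ratio of the group, with a relative intensity of 4.62 in the MSC culture, 17.2 in COS1NR and 11.2 in MFH1NR. Its ratio was 3.73 in COS1NR, where Ccnb2 was lower at 3.49, and 2.42 in MFH1NR.

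The mitotic kinases Aurka, Plk1 and Nek2 were measured and were more than 4-fold higher in both lines. Aurka encodes Aurora A, the kinase of spindle poles, and its relative intensity was 1.15 in the MSC culture, 8.30 in COS1NR and 6.66 in MFH1NR. For Plk1, a kinase with roles from mitotic entry to cytokinesis, it was 7.31, 39.5 and 48.2. The ratios of Plk1 over MSCs were 5.40 and 6.6 with this probe and 4.08 and 4.59 with a second probe. Nek2, a kinase that helps to separate the centrosomes, was at 0.202, 0.964 and 0.873, and its ratios of 4.77 and 4.31 were the lowest of these kinases by the mean of both lines.

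The chromosomal passenger complex corrects faulty attachments of the spindle and later guides cytokinesis, and its 4 subunits were all measured. Birc5, which encodes survivin, had a relative intensity of 2.75 in the MSC culture, 17.8 in COS1NR and 20.8 in MFH1NR. Cdca8, which encodes borealin, was at 0.247, 1.11 and 1.43. Aurkb encodes Aurora B, the catalytic subunit, and was at 0.595, 1.92 and 2.60. The ratios of Aurkb were 3.23 and 4.37, below those of Birc5 at 6.47 and 7.56. Incenp, the scaffold, had ratios of 3.39 and 4.54, so the 4 subunits spanned 3.23-fold to 6.47-fold in COS1NR and 4.37-fold to 7.56-fold in MFH1NR.

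The spindle checkpoint genes held the member closest to MSCs. Mad2l1, whose protein inhibits Cdc20 while kinetochores are unattached, had a relative intensity of 1.12 in the MSC culture, 7.75 in COS1NR and 7.95 in MFH1NR. Ttk, the kinase that starts checkpoint signaling, was at 2.56, 12.2 and 17.7, and a second probe gave nearly the same ratios (5.03 and 6.96 against 4.78 and 6.92). Bub1, another checkpoint kinase, was 4.56-fold and 5.39-fold higher. Bub3 encodes the protein that recruits Bub1 to kinetochores, and its relative intensity was 6.80 in the MSC culture, 12.2 in COS1NR and 14.9 in MFH1NR. At 1.79-fold and 2.20-fold, Bub3 had the lowest mean ratio of all 39 genes and was under 2-fold in COS1NR.

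The genes that trigger anaphase were all measured and all at least 3.72-fold higher in both lines. Espl1 encodes separase, the protease that cuts cohesin, and had a relative intensity of 1.69 in the MSC culture, 12.7 in COS1NR and 13.8 in MFH1NR. Pttg1 encodes securin, its inhibitor, and was at 13.9, 99.98 and 75.9. Cdc20, the activator of the anaphase-promoting complex, was at 3.44, 12.8 and 15.5, with ratios of 3.72 and 4.52. The ubiquitin-conjugating enzyme of that complex, Ube2c, was 5.10-fold and 6.31-fold higher. The protease and its inhibitor were thus both above MSCs, with ratios of 7.51 and 8.16 for Espl1 and 7.21 and 5.47 for Pttg1.

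Of the kinetochore genes, 4 of 7 were measured. Cenpa encodes the histone H3 variant that marks centromeres, and its relative intensity was 0.372 in the MSC culture, 2.98 in COS1NR and 4.18 in MFH1NR, a ratio of 8.0 and 11.2. Cenpf, a large protein of the outer kinetochore, was at 0.250, 1.52 and 1.62, with ratios of 6.11 and 6.50, and a second probe gave 5.72 and 6.62. Nuf2 and Spc25 are subunits of the Ndc80 complex, which binds microtubules. Nuf2 had the lowest mean ratio of this group, with relative intensities of 2.40, 11 and 9.28 and ratios of 4.60 and 3.87. Spc25 lay next to it, at 4.35 and 4.42.

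Kinesins are motor proteins that walk on microtubules or shorten them, and 8 of 9 listed were measured. All 8 were higher in both lines, and their ratios spanned 1.87-fold to 8.53-fold in COS1NR and 4.10-fold to 15.5-fold in MFH1NR. Kif18a, which limits the movement of chromosomes at the spindle's middle, had a relative intensity of 0.196 in the MSC culture, 0.995 in COS1NR and 3.03 in MFH1NR. The gene's other probe was 4.64-fold and 10.9-fold above MSCs, against 5.07-fold and 15.5-fold with the first. Kif22, a chromosome-bound motor, was at 2.62, 22.3 and 23.3, so that both lines were more than 8-fold above MSCs. Kif15, which works beside Kif11 to hold the spindle poles apart, was at 0.389, 1.59 and 4.02. Kif23, a motor of the central spindle, was at 1.73, 3.25 and 8.26, and its ratio in COS1NR was under 2-fold at 1.87.

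The remaining kinesins were between 4.00-fold and 10.4-fold higher. Kif20b, a motor needed late in cytokinesis, had ratios of 6.37 and 10.4. Kif11, the motor that separates the spindle poles, had ratios of 4.00 and 5.58 with the first probe and of 3.04 and 3.54 with the second. Kif2c, which removes tubulin from microtubule ends, and Kif20a, which acts at the central spindle, were 4.97-fold and 4.59-fold higher in COS1NR. In MFH1NR these ratios were 5.44 and 4.10.

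Spindle assembly genes held the widest range. Psrc1 encodes a protein that regulates spindle microtubules, and its relative intensity was 0.0772 in the MSC culture, 3.52 in COS1NR and 1.15 in MFH1NR. The ratios of 45.6 and 14.9, in log2 5.51 and 3.90, made Psrc1 the gene with the highest mean ratio of the 39, but they were 4.35 and 2.79 in log2 with normexp background correction, and its MSC spot had a software error of 12.7%. Hmmr, a hyaluronan receptor that also binds the spindle, was not well above background in MSCs. Its relative intensity was 0.138 in COS1NR and 0.167 in MFH1NR, which was at least 4.55-fold and at least 5.51-fold higher than the lowest signal well above background on the MSC array. These bounds hold for the deposited background correction, and with normexp correction the log2 ratios of Hmmr were 1.01 and 1.1. Tpx2, the activator of Aurora A, was 7.30-fold and 9.23-fold higher. Prc1, which bundles the microtubules of the central spindle, had the lowest mean ratio of this group, with relative intensities of 0.387, 1.25 and 1.41 and ratios of 3.22 and 3.64.

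For cytokinesis 3 of 4 genes were measured. Cep55 acts in the final cut between daughter cells and was at 0.0402 in the MSC culture, 0.428 in COS1NR and 0.499 in MFH1NR. The ratios were 10.6 and 12.4, from a dim probe whose spot in MSCs had a software error of 20.1%, and the log2 ratios of 3.41 and 3.63 were 1.71 and 1.87 with normexp background correction. Racgap1 and Ect2 act together at the cell's middle to switch on the GTPase of the contractile ring. Racgap1 was at 1.83, 10.3 and 9.41, and its 3 probes gave ratios from 3.56 to 5.66 in COS1NR and from 3.27 to 5.14 in MFH1NR. Ect2 was at 2.90, 19.3 and 11.2, with ratios of 6.66 and 3.84. A second Ect2 probe was not well above background in MSCs.

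Between the sarcoma lines, whose arrays shared a slide, few mitotic genes stood apart. Of the 39, 4 were at least 2-fold apart (10.3%), while 29.9% of all genes used were, 13.9% higher in MFH1NR and 16.0% higher in COS1NR. The genes used include dim ones. Of the 7931 genes well above background on all 3 arrays, 9.68% were at least 2-fold higher in MFH1NR and 12.1% in COS1NR. Of the 38 mitotic genes among these, 3 and 1 were. The median ratio of MFH1NR over COS1NR was 0.22 on the log2 scale against -0.11 for all genes used, and 27 of 39 genes were higher in MFH1NR, beside 44.4% of all genes used. These values rest on the scaling: without scaling the median of all genes moved to 0.25 and 33 mitotic genes were higher in MFH1NR, beside 63.4% of all genes. When the arrays were scaled by 7 spike-in probes, an alternative added after the data were seen, the median of all genes moved to 0.68 and 36 mitotic genes were higher in MFH1NR, beside 79.4% of all genes. At least 2-fold apart were then 20 mitotic genes, all higher in MFH1NR, beside 43.4% of all genes, with 34.9% higher and 8.42% lower in MFH1NR. Both of these scalings shift all genes alike, and with quantile normalization, which does not, the median of the mitotic genes lay 0.27 above that of all genes, against 0.34 with the 75th percentile.

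Kinesins made up 3 of the 4 genes at least 2-fold apart, which is 37.5% of the 8 measured kinesins, beside 29.9% of all genes used. Kif18a was 3.05-fold, Kif23 2.54-fold and Kif15 2.52-fold higher in MFH1NR than in COS1NR, and the second Kif18a probe gave a log2 ratio of 1.23 against 1.61. Psrc1 went the other way and was 3.06-fold higher in COS1NR, a log2 ratio of -1.61 that became -0.82 with spike-in scaling. The difference was beyond 2 software errors for 14 genes, 9 of them higher in MFH1NR and 5 in COS1NR, and within them for 25. This error was 0.20 in log2 both at its lowest and at its median over the mitotic genes. The cut was thus close to a fixed threshold on the ratio. The share of all genes used past it was not computed, so the 14 genes have no background to compare with.

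By role, the 4 passenger subunits and the 4 checkpoint genes were higher in MFH1NR, as were 44.4% of all genes used. Their median log2 ratios were 0.40 and 0.27. They stayed higher under every scaling tried, but the other scalings could hardly turn them. The median of all genes was -0.11 with the main scaling and between -0.06 and 0.68 with the other scalings. Mad2l1 at 0.04, Birc5 at 0.23, Bub1 at 0.24, Bub3 at 0.30 and Cdca8 at 0.37 lay within 2 software errors. Aurkb, Incenp and Ttk lay beyond them. Of the kinesins, 7 of 8 were higher in MFH1NR, and the remaining one, Kif20a at -0.16, turned without scaling, with quantile normalization and with spike-in scaling. Among the entry genes 4 of 5 were higher in COS1NR, with a median of -0.44, but 4 of 5 were higher in MFH1NR with spike-in scaling. Ccna2 at -0.91 and Ect2 at -0.79, whose second probes gave -0.92 and -0.49, were the genes after Psrc1 that leaned most to COS1NR. No difference between roles was tested.

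**Figure D3:**
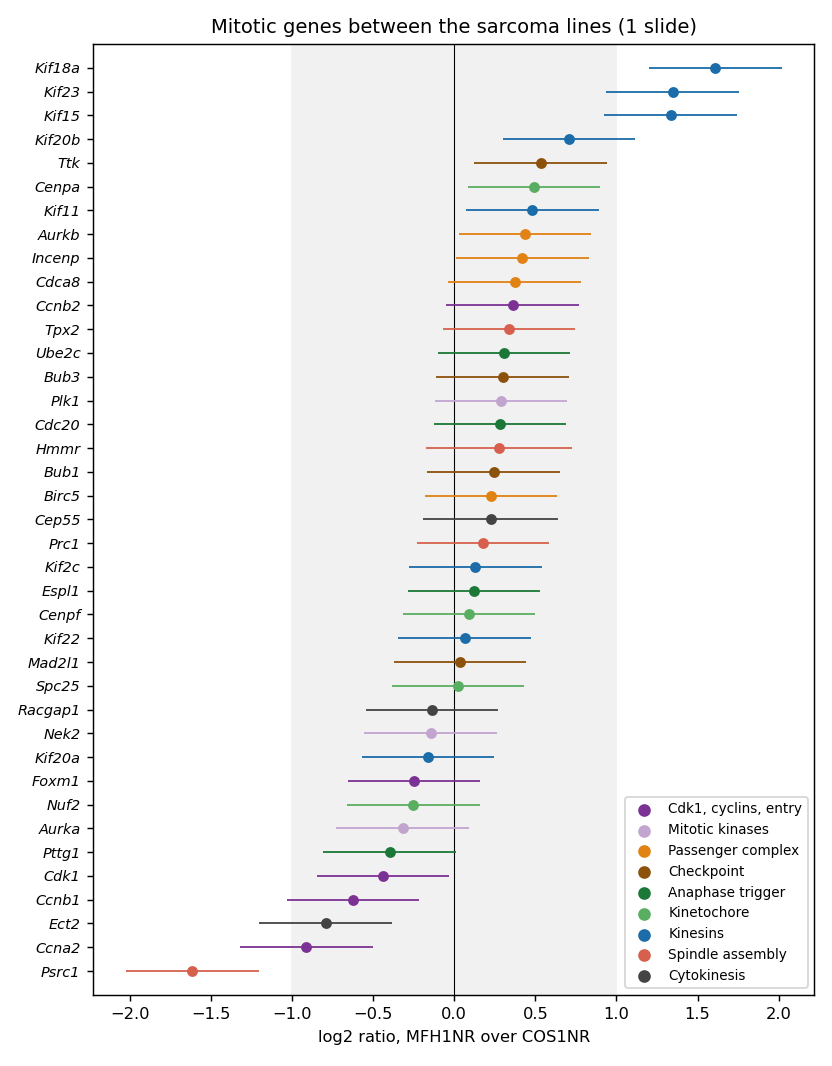
Log2 ratio of MFH1NR over COS1NR for the 39 measured mitotic genes in order of the ratio, coloured by role, with bars of 2 software errors, which cover neither cultures nor labeling (1 array per line, both on 1 slide). The grey band marks less than 2-fold, and only Kif18a, Kif23, Kif15 and Psrc1 have their point outside it, though all points shift to the right, from a median of 0.22 to 0.59 without scaling and to 1.02 with spike-in scaling.

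A wider list of 109 other mitotic genes, of which 69 were measured, was set beside the 39. At least 2-fold higher in both lines were 49 of the 69 (71.0%) and at least 2-fold lower in both was 1, beside 12.2% and 14.6% of all genes used. The median log2 ratio was 1.84 in COS1NR and 1.94 in MFH1NR. The highest mean ratios belonged to Fbxo5, an inhibitor of the anaphase-promoting complex (11-fold and 34.6-fold), to Mis18a, which helps to load the centromeric histone (8.91-fold and 20.8-fold), and to Ska1, a kinetochore protein (10.3-fold and 12.8-fold). The Fbxo5 spot in MSCs was dim, with a processed intensity of 44.0 and a software error of 13.3%. The lowest belonged to Ndel1, a dynein regulator, with a relative intensity of 47.4 in the MSC culture, 12.7 in COS1NR and 15.1 in MFH1NR. Haus8, a subunit of the augmin complex that branches spindle microtubules, and Anapc2, the scaffold of the anaphase-promoting complex, were next, with log2 ratios of -0.80 and -1.21 for Haus8 and of -0.61 and -0.25 for Anapc2.

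Complexes within this list were grouped by membership after the values were seen. The 5 measured condensin genes, which compact chromosomes, and the 5 measured genes that regulate Cdk1 at entry into mitosis were all at least 2-fold higher in both lines, beside 12.2% of all genes used. By mean ratio the condensin genes ran from Smc2 (2.06-fold and 2.81-fold) to Ncapg2 (4.61-fold and 6.75-fold). The Smc2 spot in MSCs was dim, with a processed intensity of 23.8 and a software error of 18.8%, so its place just past 2-fold in COS1NR is uncertain. The Cdk1 genes hold both directions of control, with Wee1 (4.13-fold and 4.77-fold) and Pkmyt1 (7.66-fold and 6.42-fold) encoding kinases that inhibit Cdk1, and Cdc25a and Cdc25b encoding phosphatases that activate it. For Cdc25a the MSC spot was not well above background, and the ratios were at least 3.29 and 4.02. Of the 8 measured inner kinetochore genes 6 were at least 2-fold higher in both (75%), with medians of 2.08 and 1.85. Between the lines 2 of these 8 genes (25%) were at least 2-fold apart, beside 29.9% of all genes used, with log2 ratios of MFH1NR over COS1NR of -1.49 for Cenpq and -1.37 for Cenpn.

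Core subunits of the anaphase-promoting complex, which marks securin and cyclin B for destruction, and of cohesin, which holds sister chromatids together, lay closer to MSCs. Of 9 measured subunits of the former 2 were at least 2-fold higher in both lines (22.2%, beside 12.2% of all genes used), with median log2 ratios of 0.34 in COS1NR and 0.42 in MFH1NR. Anapc5 had a relative intensity of 35.3 in the MSC culture, 36.7 in COS1NR and 33.0 in MFH1NR, and Cdc16 was at 2.33, 2.21 and 2.29. The 2 subunits past 2-fold were Cdc26 (2.45-fold and 3.02-fold) and Anapc1 (2.16-fold and 2.11-fold). Their partners among the 39 genes, Cdc20 and Ube2c, were at 3.72-fold and 5.10-fold in COS1NR. Of 4 measured cohesin genes only Rad21 (3.59-fold and 2.21-fold) was past 2-fold in both lines (25%), and the medians were 0.65 and 0.86. Augmin was mixed. Of its 4 measured subunits Haus1 (4.49-fold and 5.66-fold) and Haus3 (5.60-fold and 7.36-fold) were at least 2-fold higher in both lines, beside 12.2% of all genes used, Haus4 was at 1.40 and 2.58-fold, and the median log2 ratios with Haus8 were 1.32 in COS1NR and 1.94 in MFH1NR.

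Genes of DNA replication, which act in S phase, were also set beside the mitotic genes. Of 43 measured replication genes 35 (81.4%) were at least 2-fold higher in both lines, beside 12.2% of all genes used, and the median log2 ratios were 1.97 and 2.00. The highest were Pole2, a subunit of DNA polymerase epsilon (25-fold and 16.2-fold), Gmnn, an inhibitor of origin licensing (9.97-fold and 6.88-fold), and Prim2, a primase subunit (7.44-fold and 6.04-fold). The Pole2 spot in MSCs was dim, with a processed intensity of 30.5 and a software error of 16.5%. The lowest were the origin recognition genes Orc3, Orc4 and Orc2, whose log2 ratios were 0.42, -0.20 and 0.65 in the osteosarcoma line and 0.00, 0.73 and 0.48 in the MFH line. Between the lines 1 of 43 replication genes was at least 2-fold apart, beside 29.9% of all genes used, and 16 (37.2%) were higher in MFH1NR, beside 44.4% of all genes.

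**Figure D4:**
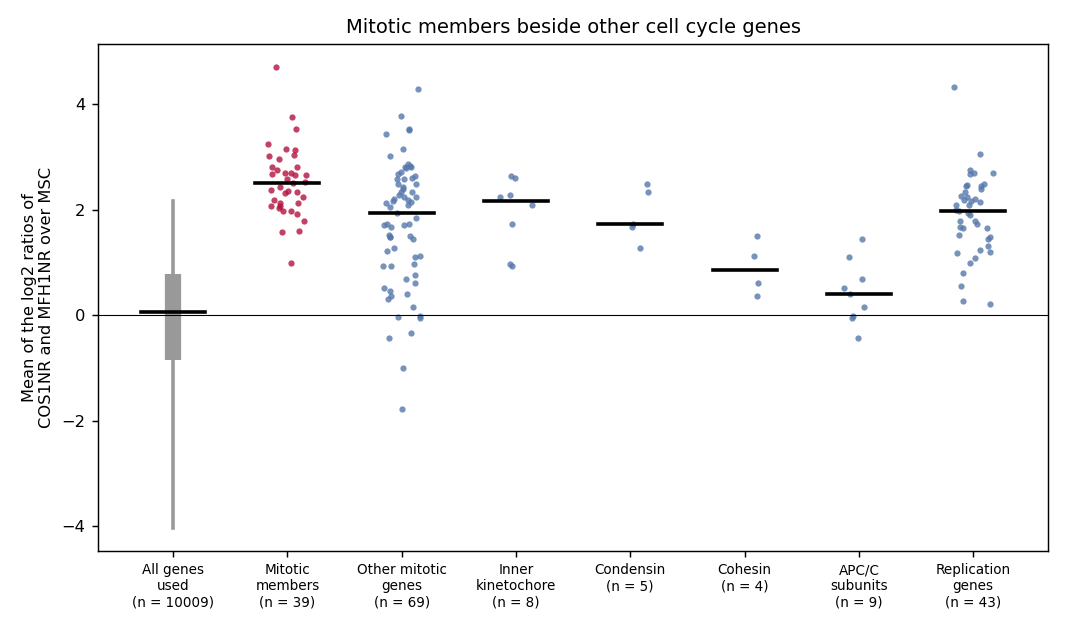
Mean of the log2 ratios of COS1NR and MFH1NR over MSCs for all 10009 genes used (grey, box from the 25th to the 75th and line from the 5th to the 95th percentile), the 39 mitotic genes, 69 other mitotic genes, 4 complexes within them and 43 replication genes, with 1 point per gene and a black bar at each median. The points share the 3 arrays, horizontal scatter has no meaning, and the subunits of the anaphase-promoting complex (APC/C) lie nearest to 0 among the lists.

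Promoter letters were counted in windows from 250 bases before to 50 after the annotated gene start, which RefSeq gave for 32 of the 39 measured genes and 43 of the 50 listed. Searched on both strands were TTTGAA for the CHR, CCAAT, and the letters TTTCGCGC, TTTGGCGC, TTTCCCGC and TTTGCCGC for sites of E2F, the factor family best known for genes of DNA replication. A CHR was found in 22 of the 32 windows (68.8%), against 18.1% of 27457 windows of all genes. A CCAAT box was found in 24 (75%, all genes 37.7%), at least 2 boxes in 17 (53.1%, all genes 11.5%), and both elements in 18 (56.2%, all genes 7.25%). E2F letters were found in 2, those of Cdk1 and Kif18a (6.25%, all genes 2.25%). A match is a description of the sequence and not a measured binding site.

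The replication genes carried these letters in other shares. Of their 41 windows 46.3% held E2F letters and 7.32% a CHR, while 58.5% held a CCAAT box. Of the 95 windows of other mitotic genes 36.8% held a CHR and 6.32% E2F letters. In the windows of all 43 listed mitotic genes 22 of 37 CHR matches lay within 100 bases before the start (59.5%), against 29.4% of the matches in windows of all genes. For the CCAAT boxes these shares were 51.4% and 39.1%. A CHR and a CCAAT match shared a base in the windows of Cdca8 and Mki67.

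The ratios overlapped between genes with and without a CHR. The median log2 ratio was 2.52 in COS1NR and 2.71 in MFH1NR for the 22 genes with a CHR, and 2.23 and 2.44 for the 10 genes without. Psrc1, with the highest mean ratio, and Bub3, with the lowest, both lacked the letters TTTGAA. For CCAAT the medians were 2.27 and 2.47 with a box (24 genes) and 2.33 and 2.68 without (8 genes).

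**Figure D5:**
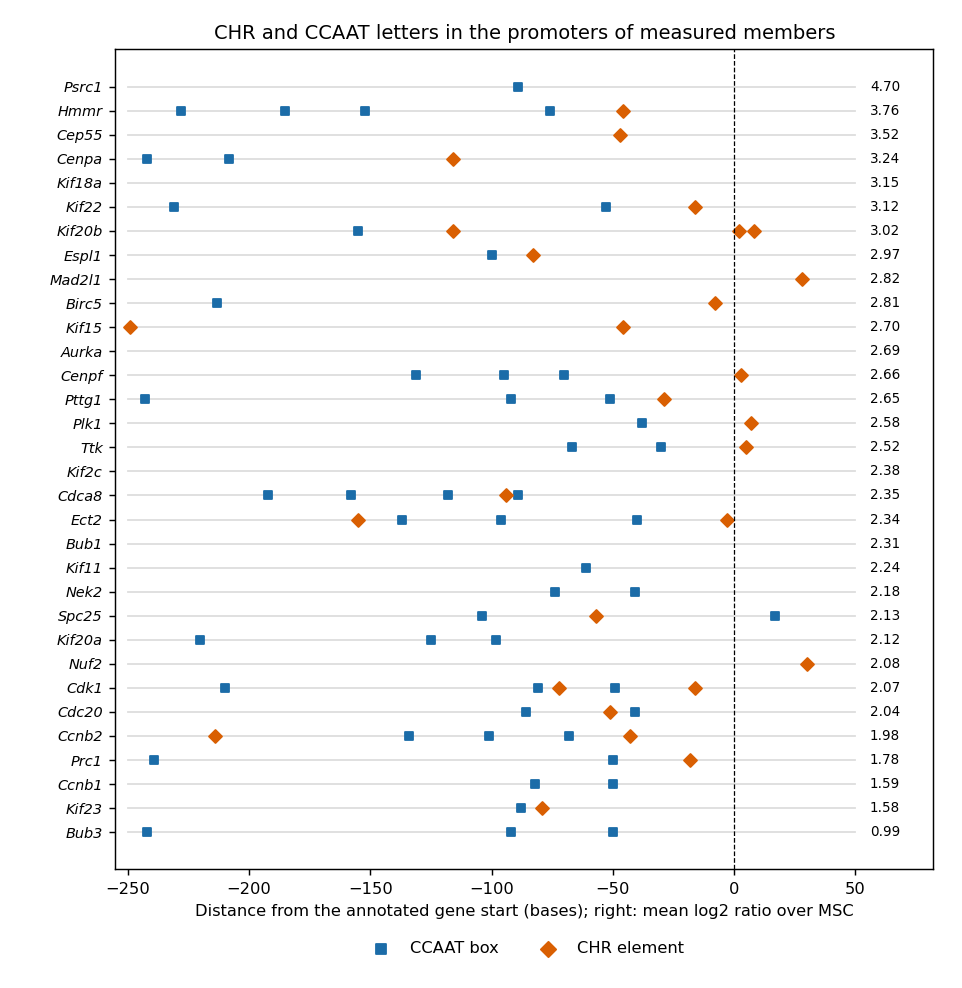
Positions of CCAAT boxes (squares) and CHR letters (diamonds) in the promoter windows of the 32 measured mitotic genes that have one, in bases from the annotated gene start (dashed line), ordered by the mean log2 ratio of both lines over MSCs, printed at the right. Many of the letters lie within 100 bases before the start. Windows with a CCAAT box and windows without a CHR reach both ends of the order, from 0.99 to 4.70. Those without a CCAAT box lie from 2.08 to 3.52, and those with a CHR from 1.58 to 3.76.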

How the data were processed

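Per the file headers, the authors made the deposited intensities with Agilent Feature Extraction, which subtracted a background from every spot and removed spatial trends, with no scaling across arrays. The headers name version 10.5.1.1 of that software and the submitters' processing notes version 9.1. The series table held the same intensities on 3 of 3 arrays. RNA and labeling kits are RNeasy and Quick Amp in the methods, and FastTrack and Low RNA Input in the labels.

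Control and outlier spots (187 to 217 outliers per array) were left out, spots of a probe were averaged in log2, and each array was scaled by its 75th percentile. Probes were named through RefSeq accessions and the GRCr8 gene table, and the probe of highest mean log2 intensity stood for its gene. Of 13301 genes, the 10009 well above background on at least 1 array were used. A ratio against a spot not well above background is a bound, over the higher of that spot and the array's lowest signal well above background. With 1 array per group, a count of genes past 2-fold took the place of a test, and the number of arrays limits the precision.

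The members, the other gene lists and the rules were chosen with earlier results of these data known. Full levels are given for the 2 highest and the lowest gene of each role by mean ratio, those under 2-fold in a line, those at least 2-fold apart between the lines, and some genes chosen after their values were seen, such as Cdk1 and Ccnb2. From the wider mitotic list and the replication list the 3 highest and 3 lowest are named, and genes of complexes were chosen after their values were seen. The counting was tested on simulated data. Alternatives were other scalings, background corrections, probes, filters and a 3-fold threshold. Software was Python 3.11.15 (numpy 2.4.6, pandas 2.3.3, matplotlib 3.10.9) and, for normexp, R 4.3.3 (limma 3.58.1).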

Additional observations from a re-analysis of the deposited data

Results flagged for a closer look

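Spp1, which encodes the bone matrix protein osteopontin and was among the osteoblast markers used to check the samples, moved in opposite directions in the lines. Its log2 ratio over MSCs was -1.09 in COS1NR and 1.29 in MFH1NR, from relative intensities of 61.4 in the MSC culture, 28.8 in COS1NR and 150.1 in MFH1NR. The difference was not tested.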

How the results depend on the processing

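Over 14 alternatives, 11 planned and 3 added after the data were seen, no ratio of a mitotic gene over MSCs changed its direction. Some of them could not change one. The series table held the same intensities, and a 3-fold threshold or a filter on dim probes leaves each ratio as it was. Of 1425 values for single genes, none past 2-fold reversed and 479 moved by more than the spread of 0.07 between replicate spots. Without scaling between arrays, the median log2 ratio of the mitotic genes was 2.74 in COS1NR, 3.24 in MFH1NR and 0.59 for MFH1NR over COS1NR. Median scaling gave 2.50 and 2.70 over MSCs, and quantile normalization 2.58 in MFH1NR. Among the 8 genes with a second probe, 8 were at least 2-fold apart in COS1NR, 8 in MFH1NR and 1 between the lines, fewer because fewer genes have such a probe, beside 38.7%, 41.3% and 28.7% of the 2375 genes used that have one, and their median in MFH1NR was 2.66. At 3-fold, 2 of 39 genes stood apart between the lines, beside 18.7% of all genes used. Added later, normexp correction on the median spot intensity gave 2.15 and 2.19 over MSCs, with an offset of 50. Scaling by 7 spike-in probes gave 2.07 and 3.0 over MSCs and 1.02 between the lines, with 20 genes at least 2-fold apart, and it shifted all genes by the same amount. The planned normexp correction on the mean spot intensity was not run, since the files used give the median. No paired analysis was possible because each group has 1 array.

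With 1 array per cell type, the spread between cultures is unknown. Dim spots in MSCs limit the ratios of Hmmr, Cep55 and Psrc1, whose lowest log2 ratios over all settings were 1.01, 1.71 and 4.35 in COS1NR and 1.1, 1.87 and 2.79 in MFH1NR. Fbxo5, Smc2 and Pole2 of the comparison lists also rest on dim MSC spots.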
